A study of Homo sapiens with 6 samples.

Results

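The genes described here are the 4 ID genes (ID1, ID2, ID3 and ID4), the bone morphogenetic protein (BMP) ligands BMP2, BMP4 and BMP7, and the BMP receptors BMPR1A, BMPR1B and BMPR2. These 10 genes were taken by name from a table of 56505 rows, and all 10 were found and passed the filter on low counts. The cells sequenced were, by their labels, MDA-MB-468, a basal-like triple-negative line of human breast cancer. In 3 libraries the cells carried a short hairpin RNA against cytokeratin 5, the product of KRT5 (pLK0-shCK5-425222, titled shCK5-22, here shCK5), and in 3 they carried pLK0-shControl (here shControl). All cells were grown in serum-containing medium with no other treatment, only 1 knockdown hairpin was used, and the labels do not say that replicates were separate cultures, so p-values cover only library-to-library spread, possibly of technical origin.

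BMPs are secreted dimers that bind a complex of type I and type II receptor serine/threonine kinases. The type I receptor phosphorylates SMAD1, SMAD5 or SMAD9, which join SMAD4 and enter the nucleus, where the ID genes are among the best known direct targets. ID proteins have a helix-loop-helix domain without a DNA-binding basic region, and they hold E proteins and other basic helix-loop-helix factors off DNA. In breast tissue ID4 is known as a gene of basal and stem-like mammary cells, and ID1 and ID3 are linked to self-renewal and metastatic outgrowth of breast cancer cells.

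Levels below are in CPM, the usual depth-scaled unit: a gene's count relative to the library size, which was itself scaled by TMM, edgeR's trimmed-mean factor. Total counts lay between 68810882 and 83594772 per library. KRT5 had 17.2, 15.5 and 16.5 CPM in the shCK5 libraries and 2056, 2060 and 2017 CPM in the shControl libraries (log2 fold change -6.96, SE 0.0369, edgeR quasi-likelihood adjusted p = 1.15e-34). The cell line label was checked against genes it is known to lack. RB1 averaged 101 ± 2.16 CPM in shCK5 and 2.00 ± 0.136 CPM in shControl (SD, n = 3 each), and SMAD4, the shared SMAD of the BMP pathway, averaged 16.9 ± 0.547 CPM in shCK5 and 0.235 ± 0.138 CPM in shControl, although both genes are deleted in MDA-MB-468. The libraries labelled shCK5 therefore went against their cell line label at these genes, all 3 alike, so no result can be given without them, and effects of the knockdown and a difference in cells cannot be told apart. Of 10 epithelial markers, 9 fell and 1 (CLDN4) rose, where 41.7% of all genes tested were called lower and 40.9% higher. Their summed level was 2323 to 2352 CPM in shCK5 and 10930 to 11180 CPM in shControl. KRT5, the target of the hairpin, is among the 9 and in these sums, with a mean of 16.4 CPM in shCK5 and 2044 CPM in shControl. All 8 mesenchymal markers rose, to a sum of 1842 to 1878 CPM in shCK5, against 55.9 to 59.8 CPM in shControl, where SNAI2 had no count. Fibroblast markers summed to 12.3 to 14.4 CPM in shCK5 and 19.1 to 20.1 CPM in shControl, and THY1 had no count in any library. Leukocyte markers summed to 0.734 to 1.03 CPM in shCK5 and 4.98 to 6.13 CPM in shControl, with CD68 at 0 throughout, and endothelial markers summed to 6.36 to 7.19 CPM in shCK5 and 4.51 to 6.45 CPM in shControl. Rows without counts, such as THY1 and CD68, were not taken as silent genes, since JUNB, a widely expressed gene, also had none. The fibroblast and endothelial sums hid moves in both directions. Of 3 tested fibroblast markers, PDGFRB rose (log2 fold change 3.19), and FAP (-4.56) and COL1A1 (-0.56) fell. Of 6 endothelial markers, 3 rose and 3 fell, with log2 fold changes from -5.14 for CDH5 to 2.40 for CLDN5. The part of these marker differences in the results below was not tested.

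The start regions of ID1 and ID4 are shown because these paralogs, both known BMP targets, moved in opposite directions between the groups. Each line runs 5′ to 3′ along the gene's strand through the bases before the RefSeq start (RefSeq on GRCh38.p14), and stops before the first exon base that GENCODE v29 annotates. Capitals mark every match, on either strand, to GGCGCC (a GC-rich SMAD1 and SMAD5 motif), GTCTG (a SMAD motif, CAGAC on the other strand), CANNTG (the E-box bound by E proteins), CCAAT (the CCAAT box, which reads ATTGG on the other strand) and TATAAA (the TATA box). The motifs were chosen after these sequences had been seen.
ID1: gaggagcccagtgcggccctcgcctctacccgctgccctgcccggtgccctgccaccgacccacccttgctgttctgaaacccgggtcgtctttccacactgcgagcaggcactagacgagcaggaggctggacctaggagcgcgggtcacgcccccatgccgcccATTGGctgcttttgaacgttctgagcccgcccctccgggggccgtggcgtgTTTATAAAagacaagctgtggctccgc
ID4: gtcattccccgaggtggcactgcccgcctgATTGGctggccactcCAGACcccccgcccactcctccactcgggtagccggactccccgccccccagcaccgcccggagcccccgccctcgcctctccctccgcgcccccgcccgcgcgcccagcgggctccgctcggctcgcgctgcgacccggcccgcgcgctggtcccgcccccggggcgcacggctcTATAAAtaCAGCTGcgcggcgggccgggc
The ID1 stretch lies at chr20:31605039-31605282 and holds 244 bases, and the ID4 stretch lies at chr6:19837120-19837369 and holds 250 bases, both on the plus strand. Motifs were counted in the 250 bases before the RefSeq start of all 4 ID genes, of which 202 bases in ID2 and all 250 in ID3 are 5′ untranslated exon in GENCODE v29, so these are not printed. None of the 4 windows held GGCGCC, which 16.4% of 35116 RefSeq windows of the same length held. GTCTG, found in 38% of all windows, occurred in ID3, 147 bases before the start, and in ID4, 205 bases before it. An E-box, found in 61.8% of all windows, occurred in ID2 (205 bases before the start) and ID4 (21 bases before it), with the letters CAGCTG in both genes. The CCAAT box was present in ID1, ID2 and ID4 and in 32% of all windows, with 3 copies in ID2. TATAAA was present in ID1 and ID4, beginning 31 and 29 bases before the start, and in 10.7% of all windows; in ID1 it overlaps its own reverse complement. A match is a description of these letters only, and sites outside the windows were not searched. RefSeq windows were found for 8 of the 10 genes. Of these, GGCGCC was found in BMP4, 232 bases before 1 of its starts, and in BMPR2, 147 bases before its start. GTCTG was found in BMP4, BMPR1B and BMPR2 besides the ID genes named above.

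ID1 and ID3 rose in shCK5, and ID2 and ID4 fell. ID1 (ENSG00000125968.8, chromosome 20, 31605283 to 31606515, plus strand, GRCh38, GENCODE v29) had 71.6, 73.5 and 67.6 CPM in the shCK5 libraries, against 22.8, 23.3 and 25.2 CPM in the shControl libraries. Every shCK5 library was far above every shControl library. The log2 fold change was 1.58 (SE 0.0433; edgeR adjusted p = 4.49e-21), a level 2.99 times as high. ID3 (ENSG00000117318.8, chromosome 1, 23557918 to 23559794, minus strand), which is often expressed together with ID1 and can stand in for it in mouse development, moved in the same direction by less. Its level was 22.2, 21.7 and 21.7 CPM in shCK5 and 12.6, 12.4 and 12.5 CPM in shControl. The ID3 values of each group lay close together (coefficient of variation 1.24% in shCK5 and 0.986% in shControl), and the log2 fold change was 0.81 (SE 0.0532; edgeR adjusted p = 4.40e-13).

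ID4 and BMP7 showed the largest differences of the 10 genes, and their order is not settled: without shCK5 replicate 3 the log2 fold change was -5.59 for ID4 and -5.75 for BMP7. ID4 (ENSG00000172201.11, chromosome 6, 19837386 to 19840684, plus strand) had 0.491, 0.420 and 0.263 CPM in shCK5 replicates 1, 2 and 3 (39, 32 and 19 counts), against 20.1, 25.2 and 21.2 CPM in the shControl libraries. All shCK5 libraries held few ID4 counts, and their coefficient of variation was 29.9%, and shControl replicate 2 was the highest of its group. The log2 fold change was -5.81 (SE 0.134; edgeR adjusted p = 1.13e-22), a level 56.1 times as high in shControl. ID2 (ENSG00000115738.9, chromosome 2, 8678845 to 8684453, plus strand), whose product is best known as a regulator of lymphoid and mammary alveolar differentiation in mice, fell as well. Its values were 1.36, 1.13 and 1.24 CPM in shCK5 and 6.15, 5.82 and 6.41 CPM in shControl, with no overlap (log2 fold change -2.30, SE 0.122; edgeR adjusted p = 5.10e-15). The exons of ID2 share 38 bases with ID2-AS1 on the opposite strand. ID2-AS1 had 4 counts in shCK5 and 58 in shControl, while ID2 had 284 in shCK5 and 1382 in shControl, and without a stated strand setting their reads cannot be told apart.

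**Figure D1:**
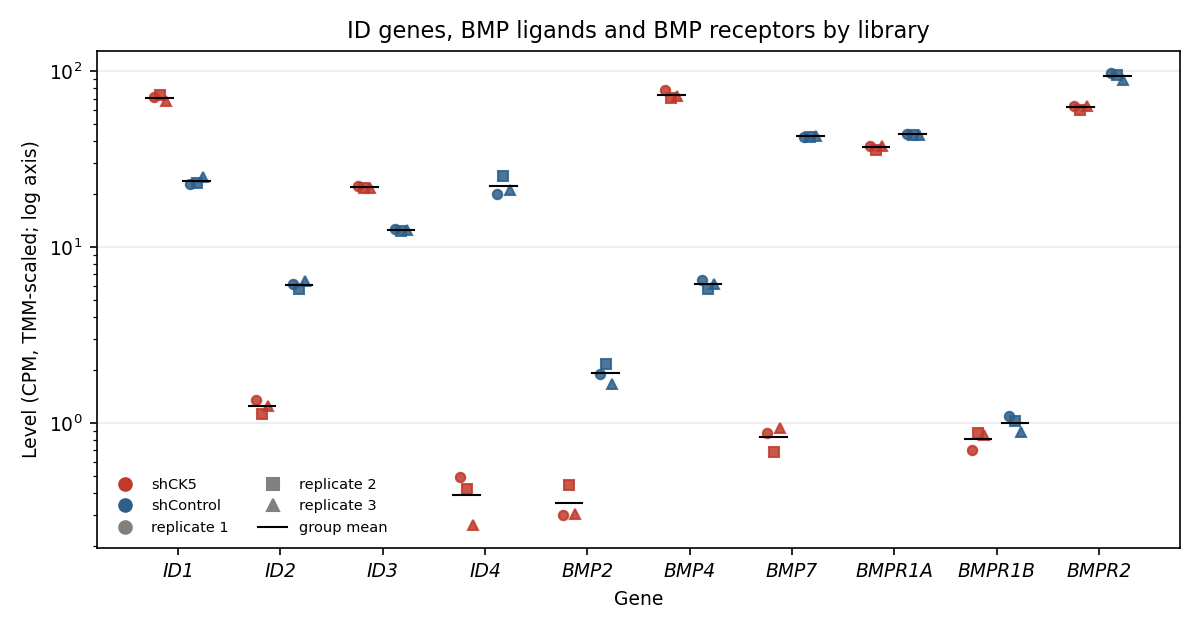
Level of each of the 10 genes in every library, in TMM-scaled CPM on a log axis, with shCK5 (red) left of shControl (blue), a marker shape per replicate number and a bar at the group mean. ID1, ID3 and BMP4 lie higher in shCK5, and ID2, ID4, BMP2, BMP7, BMPR1A and BMPR2 lie lower, the receptors by the least of these.

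The ligands changed places. BMP4 (ENSG00000125378.15, chromosome 14, 53949736 to 53958761, minus strand), a ligand of mesenchyme and of early embryonic patterning, had 78.4, 70.1 and 72.2 CPM in the shCK5 libraries, against 6.50, 5.82 and 6.17 CPM in the shControl libraries. Its groups were separated by more than the whole range within either one. The log2 fold change was 3.58 (SE 0.0540; edgeR adjusted p = 1.80e-26), from 16792 counts in shCK5 and 1391 in shControl. BMP7 (ENSG00000101144.12, chromosome 20, 57168748 to 57266629, minus strand), a ligand known for kidney and eye development, went the other way. It had 0.882, 0.682 and 0.940 CPM in shCK5 and 42.5, 42.3 and 43.1 CPM in shControl, and BMP7 was the steadiest ligand across the shControl libraries, with a coefficient of variation of 1.05%. The log2 fold change was -5.67 (SE 0.0788; edgeR adjusted p = 3.28e-27), a level 51.02 times as high in shControl.

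BMP2 (ENSG00000125845.6, chromosome 20, 6767664 to 6780280, plus strand), the closest relative of BMP4 and a known inducer of bone, was low in all libraries. It had 0.302, 0.446 and 0.304 CPM in shCK5 and 1.91, 2.18 and 1.67 CPM in shControl. The highest shCK5 library was below the lowest shControl library, and the fold rests on 80 counts in shCK5 (log2 fold change -2.45, SE 0.233; edgeR adjusted p = 6.13e-10). BMP2 and BMP4 are nearly interchangeable ligands in many assays, and their transcripts moved in opposite directions here.

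Of the receptors, BMPR2 and BMPR1A fell and BMPR1B did not pass the test. BMPR2 (ENSG00000204217.13, chromosome 2, 202376936 to 202567751, plus strand), the type II receptor that is specific for BMPs, had 63.2, 60.5 and 63.2 CPM in shCK5 and 97.4, 95.6 and 89.6 CPM in shControl. All shCK5 values lay below all shControl values, and the log2 fold change was -0.60 (SE 0.0348; edgeR adjusted p = 3.61e-14). BMPR1A (ENSG00000107779.13, chromosome 10, 86756601 to 86932838, plus strand), the broadly expressed type I receptor also called ALK3, had 37.5, 35.8 and 37.6 CPM in shCK5 and 44.2, 43.4 and 43.5 CPM in shControl. Its fall was small but larger than the spread (log2 fold change -0.24, SE 0.0383; edgeR adjusted p = 2.87e-06). BMPR1A has a pseudogene, BMPR1APS2, with 256 counts in shCK5 and 339 in shControl, while BMPR1A had 8424 in shCK5 and 9883 in shControl, and reads that fit both could have been counted at either.

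BMPR1B (ENSG00000138696.10, chromosome 4, 94757968 to 95158448, plus strand), another BMP type I receptor, also called ALK6, was low in all libraries. Its values were 0.705, 0.879 and 0.857 CPM in shCK5 and 1.10, 1.03 and 0.892 CPM in shControl. The groups did not overlap, but by a margin smaller than the spread within either, and the difference did not pass the threshold (log2 fold change -0.31, 95% interval -0.75 to 0.13; edgeR adjusted p = 0.205). With 185 counts in shCK5 and 228 in shControl, a change within that interval could not be resolved at this depth. The balance of the type I receptors was compared as the ratio of BMPR1A to BMPR1B counts, which needs no scaling. It was 53.2, 40.8 and 43.8 in the shCK5 libraries and 40.2, 42.3 and 48.8 in the shControl libraries. The ranges overlapped, and the mean log2 ratio, with 0.5 added to each count, was 0.06 higher in shCK5 (two-sided exact permutation test, p = 0.6; the smallest p that 3 against 3 allows is 0.1). Without shCK5 replicate 1 this difference was -0.0468, so it has no settled sign.

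**Figure D2:**
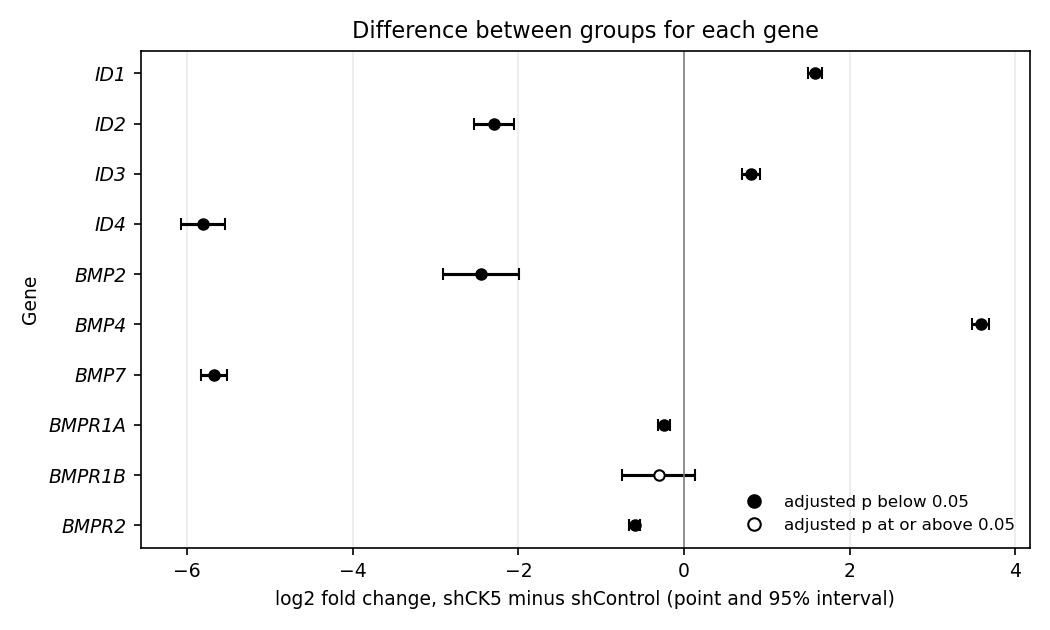
Log2 fold change (shCK5 minus shControl) of each of the 10 genes from edgeR's quasi-likelihood fit, with the 95% interval from its standard error; filled points have an adjusted p below 0.05. The values run from -5.81 for ID4 to 3.58 for BMP4, and only the interval of BMPR1B spans 0.

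Of the 10 genes, 3 rose, 6 fell and 1 did not pass, and the groups did not overlap in any of them. The total called is close to that of the whole table, where 82.7% of 19567 genes tested passed (40.9% higher and 41.7% lower). Of all genes tested, 84.2% did not overlap. The number of genes called is therefore no result about this pathway. The split by direction leaned more to lower genes than in the whole table, but it rests on 10 genes and was not tested. The median log2 fold change of the 10 genes, which moved in both directions, was -0.453, against -0.0194 over all genes tested. This signed median does not measure size. The median absolute log2 fold change of all genes tested was 0.853, and its 90th percentile was 3.79. ID4 and BMP7 had larger absolute log2 fold changes than 96.5% and 96.3% of tested genes, BMP4 than 89%, BMP2 than 81.2%, ID2 than 79.9%, ID1 than 70.4% and ID3 than 48%. The receptor values were 37.8% for BMPR2, 20.8% for BMPR1B and 16.5% for BMPR1A. The 10 genes were chosen with results of these data known, so these ranks are descriptions. In RNA from bulk cultures, fewer cells expressing a gene and less RNA per cell cannot be told apart.

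Levels of different genes were compared per kilobase of exon, using the union of exons in GENCODE v29. In shCK5 the order was led by ID1 at 57.5 ± 2.45 CPM per kb (SD, n = 3), followed by BMP4 at 23.9 ± 1.40, ID3 at 12.2 ± 0.152, BMPR2 at 5.24 ± 0.129 and BMPR1A at 3.24 ± 0.0875. ID2 stood at 0.564 ± 0.0527 CPM per kb, below these. The last 4 places in shCK5 (ID4, BMP7, BMPR1B and BMP2, at 0.167 to 0.0974 CPM per kb) each overlapped the next in at least 1 library and cannot be ordered. In shControl ID1 again led at 19.3 ± 1.03 CPM per kb, followed by ID4 at 9.47 ± 1.15. BMPR2 (7.92 ± 0.339) and BMP7 (7.87 ± 0.0822) overlapped each other, and ID3 (6.96 ± 0.0686), BMPR1A (3.83 ± 0.0371), ID2 (2.78 ± 0.135), BMP4 (2.00 ± 0.110), BMP2 (0.533 ± 0.0708) and BMPR1B (0.160 ± 0.0168) followed without overlap. Part of this order in shControl depends on the length used: by the longest transcript BMP7 had 10.6, ID3 9.99, ID4 9.47 and BMPR2 8.22 CPM per kb, and BMP4 (3.22) stood above ID2 (3.00).

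The make-up of the ligand class turned over. BMP4 made 98.9% to 99% of the summed level per kb of the 3 ligands in the shCK5 libraries and 18.3% to 20.1% in the shControl libraries. BMP7 made 0.548% to 0.732% in shCK5 and 74.8% to 76.3% in shControl. Among the ID genes, ID1 made 81.1% to 82.3% in shCK5 and 48.2% to 52% in shControl, and ID4 made 0.166% to 0.294% in shCK5 and 23% to 27.5% in shControl. The share of ID3 was 16.7% to 17.9% in shCK5 and 17.6% to 19.1% in shControl, with overlapping ranges. In the receptor class BMPR2 was the larger part, at 60.8% to 61% in shCK5 and 65.6% to 66.9% in shControl.

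**Figure D3:**
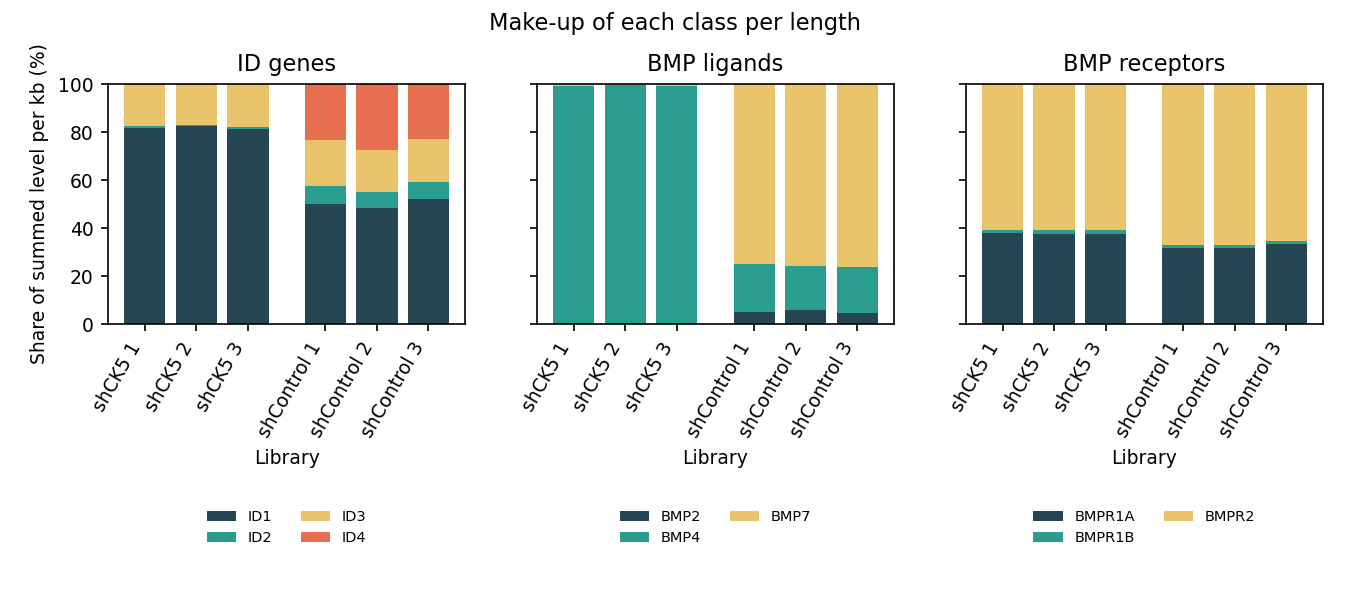
Share of each gene in the summed level per kilobase of exon of its class (percent), for each library, shCK5 left of shControl. ID4 fills 23% to 27.5% of the ID class in shControl and under 0.3% in shCK5, BMP7 gives way to BMP4 among the ligands, and BMPR2 is the larger part of the receptor class in all 6 libraries.

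The genes with levels most like each ID gene over the 6 libraries, by Euclidean distance in log2 CPM, were SPOP and C5orf42 for ID1 (distances 0.195 and 0.199), FBP2 and DLX4 for ID2 (0.256 and 0.289), SCAPER and TCTA for ID3 (0.119 and 0.127) and LGR6 and EFNB3 for ID4 (0.686 and 0.693). With 2 groups of libraries this measure reflects little beyond the level in each group. SPOP, the nearest to ID1, averaged 66.1 CPM in shCK5 and 24.1 CPM in shControl, and LGR6, the nearest to ID4, averaged 0.354 CPM in shCK5 and 20.5 CPM in shControl.

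Genes of extracellular antagonists, proteins that bind BMPs or related ligands and keep them from their receptors, were called in both directions. Of 16 listed, 13 were tested, 9 rose, 3 fell and 1 did not pass, with a median log2 fold change of 1.29. Of all genes tested, 40.9% were called higher and 41.7% lower, and the counts of this and the following lists are descriptions beside those shares. FST, which encodes follistatin, an inhibitor mainly of activins that also binds BMPs, reached 69.1 ± 2.56 CPM in shCK5, against 0.502 ± 0.0995 CPM in shControl (log2 fold change 7.09, SE 0.0787; edgeR adjusted p = 3.77e-29). NOG, which encodes noggin, an inhibitor of BMP2, BMP4 and BMP7, reached 34.2 ± 2.58 CPM in shCK5, against 0.426 ± 0.0436 CPM in shControl (log2 fold change 6.33, SE 0.1004; edgeR adjusted p = 5.04e-26). Noggin and BMP4 transcripts were thus both high in the same libraries and both low in the others. BMPER, a BMP-binding endothelial regulator, had 5.00 ± 0.174 CPM in shCK5 and 0.0920 ± 0.0300 CPM in shControl (log2 fold change 5.72). The antagonists that fell were GREM1, DAND5 and SOSTDC1 (log2 fold changes -2.81, -1.91 and -2.79; named after their values were seen).

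Transcripts of the SMADs and their regulators moved both ways, with 7 of 15 tested genes higher and 7 lower (median log2 fold change 0.0418). SMAD1, a receptor-activated SMAD of the BMP branch, fell to 3.44 ± 0.192 CPM in shCK5, against 40.8 ± 2.21 CPM in shControl (log2 fold change -3.57, SE 0.0641; edgeR adjusted p = 6.25e-25). SMAD5, which acts in parallel with SMAD1, was higher at 89.0 ± 4.11 CPM in shCK5, against 47.3 ± 2.48 CPM in shControl (log2 fold change 0.91). SMAD9, the third of this branch, had 2.67 ± 0.577 CPM in shCK5 and 0.207 ± 0.112 CPM in shControl (log2 fold change 3.70). SMAD4 had 16.3, 16.9 and 17.4 CPM in the shCK5 libraries and 0.322, 0.0752 and 0.307 CPM in the shControl libraries, from 24, 6 and 22 counts in shControl (log2 fold change 6.18, SE 0.160; edgeR adjusted p = 1.24e-21). The inhibitory SMAD6, itself a BMP target, fell to 10.1 ± 0.803 CPM in shCK5, against 45.0 ± 1.92 CPM in shControl (log2 fold change -2.15), and SMAD7 had a log2 fold change of -0.66. SMAD5, SMAD6 and SMAD7 were named after their values were seen.

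**Figure D4:**
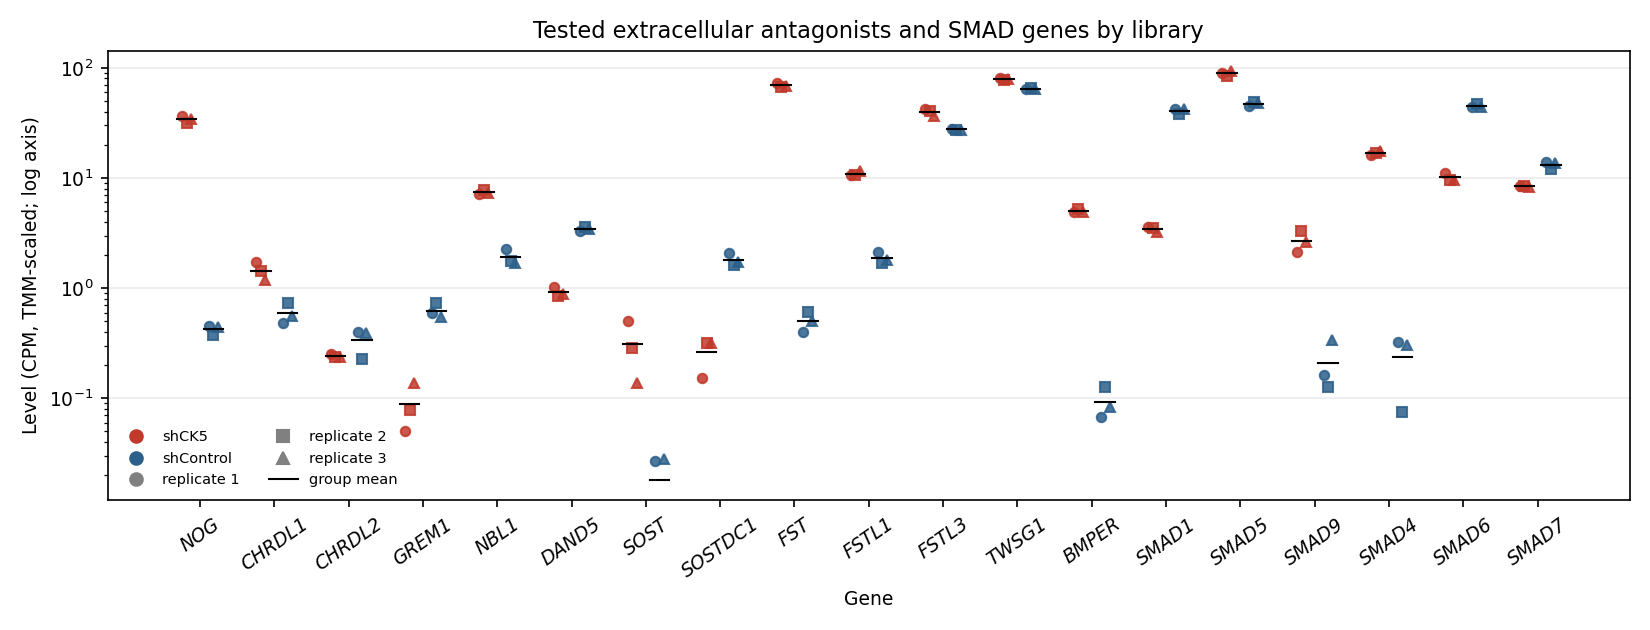
Level of the 13 tested extracellular antagonists and of 6 SMAD genes in every library, in TMM-scaled CPM on a log axis, shCK5 (red) left of shControl (blue), with a bar at the group mean. NOG, FST, BMPER and SMAD4 lie far higher in shCK5 and SMAD1 and SMAD6 lower; the shControl library in which SOST had no count is not drawn.

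Among other ligands of the family, 4 of 11 tested rose and 5 fell, and the others missed the threshold (median log2 fold change -0.784). BMP5 fell to 0.288 ± 0.0565 CPM in shCK5, against 2.19 ± 0.310 CPM in shControl, and GDF15, a stress-induced and distant member of the family, to 7.76 ± 0.589 CPM in shCK5, against 52.5 ± 2.25 CPM in shControl. GDF7 rose on low counts, with 98 in shCK5 and 10 in shControl (log2 fold change 3.22; 2.61 without shControl replicate 2 and 3.95 without shControl replicate 3). Of 8 other receptors and co-receptors, 3 rose and 5 fell (median -0.419). RGMA, a BMP co-receptor, had 0.343 ± 0.0160 CPM in shCK5 and 9.86 ± 0.723 CPM in shControl. Endoglin (ENG), a co-receptor best known in endothelium, had 1.70 ± 0.299 CPM in shCK5 and 19.98 ± 1.20 CPM in shControl. The RGM receptor gene NEO1 had 11.4 ± 0.157 CPM in shCK5 and 50.5 ± 1.02 CPM in shControl.

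Genes of enzymes that process BMP precursors or antagonists split as well: of 5 tested, 3 were called higher and 1 lower, while 1 missed the threshold (median log2 fold change 0.134). PCSK6, a proprotein convertase, fell to 0.407 ± 0.0501 CPM in shCK5, against 20.1 ± 0.998 CPM in shControl. FURIN, the convertase that cleaves the BMP4 precursor, rose to 158 ± 1.53 CPM in shCK5, against 42.1 ± 1.97 CPM in shControl (log2 fold change 1.91, SE 0.0337; edgeR adjusted p = 4.47e-25). TLL2, a tolloid-like protease, had a log2 fold change of 3.31 on 183 counts in shCK5 and 18 in shControl.

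BMP-responsive genes outside the ID family also moved both ways, with 4 of 10 tested higher and 6 lower (median log2 fold change -1.32). MSX2, a homeobox gene induced by BMPs in skull and limb, had 1.19 ± 0.0885 CPM in shCK5 and no count in shControl (at least 89.9-fold higher, against a floor of 3 counts over the 3 libraries). DLX3, a homeobox gene of epidermal differentiation, fell to 0.433 ± 0.106 CPM in shCK5, against 33.4 ± 0.627 CPM in shControl (log2 fold change -6.27, SE 0.0961; edgeR adjusted p = 2.44e-26). NKX2-5, a cardiac homeobox gene, had a log2 fold change of -4.17 on 12 counts in shCK5 and 220 in shControl.

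Of the genes of basic helix-loop-helix factors that ID proteins can bind or act beside, 5 of 10 were tested, 2 rose and 3 fell (median log2 fold change -0.126). TCF12, which encodes the E protein HEB, reached 69.3 ± 1.85 CPM in shCK5, from 15783 counts, against 2 counts in shControl, both in replicate 3 (ratio 7820, exact 95% interval 2170 to 64600; fitted log2 fold change 12.69, and 15.37 without that library). TCF3, which encodes the E proteins E12 and E47, was abundant in both groups, at 230 ± 4.60 CPM in shCK5 and 251 ± 7.84 CPM in shControl (log2 fold change -0.13, SE 0.0283; edgeR adjusted p = 0.000248; named after its values were seen). LYL1, a haematopoietic factor, had 5.54 ± 0.335 CPM in shCK5 and 0.106 ± 0.0714 CPM in shControl (log2 fold change 5.68; 6.36 without shControl replicate 1). ASCL2 had 2 counts in shCK5, both in replicate 1, and 210 in shControl (106 times as high in shControl, exact 95% interval 29 to 880; fitted log2 fold change -6.48, and -9.12 without shCK5 replicate 1).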

How the data were processed

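RNA sequencing counts of 3 shCK5 and 3 shControl libraries were analysed. The authors deposited 1 table of raw whole-number counts per gene name, with no normalization (sorted alignment files are named as their origin, per the file headers). GRCh38 and the tools cutadapt, STAR, SAMtools and Cufflinks stand in the submitters' processing notes; counting program, strand setting, annotation and versions: not given in the sources used here. Between 63.1% and 65% of counts above 20 were even, a pattern that arises when both mates of a fragment are counted, and intervals from counts cover counting error only and may be too narrow. Rows with no count were not taken to mean that a gene is silent, since JUNB, a widely expressed gene, had none. In 27 rows the gene name had become a date, and none is named.

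Counts were analysed with edgeR 4.0.16 in R 4.3.3: filterByExpr left 19567 genes, TMM factors scaled the libraries, and groups were compared by the quasi-likelihood test with Benjamini-Hochberg adjustment over all genes tested (threshold 0.05). Fold changes are shCK5 over shControl, with the standard error obtained from the quasi-likelihood F statistic. Exon lengths, coordinates and overlaps came from GENCODE v29 on GRCh38 (the annotation used by the authors may differ), and start regions from RefSeq on GRCh38.p14. Motifs were searched on both strands. From each pathway list, the 3 called genes with the largest absolute log2 fold change were named; the 10 genes, the lists and this rule were chosen with earlier results of these data known. Alternatives were edgeR's RLE size factors, library size alone, no filter, DESeq2 1.42.0, halved counts, the replicate number as a block, and each library left out. Replicate numbers did not pair the libraries: deviations from the group means of same-numbered libraries correlated at -0.00317 to 0.00735.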

Additional observations from a re-analysis of the deposited data

How the results depend on the processing

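The 10 genes kept their direction and their side of the threshold in all 12 alternatives (120 of 120 values), as did 38 other genes whose fold changes were recomputed (456 of 456). Log2 fold changes ranged from 1.44 to 1.62 for ID1, 0.67 to 0.83 for ID3, -2.43 to -2.22 for ID2, -6.00 to -5.59 for ID4, 3.44 to 3.62 for BMP4, -5.81 to -5.54 for BMP7, -2.65 to -2.34 for BMP2, -0.73 to -0.57 for BMPR2 and -0.38 to -0.21 for BMPR1A. For BMPR1B they ranged from -0.45 to -0.20, with adjusted p between 0.0709 and 0.447. Scaled by library size alone, BMPR2 (-0.73) differed by more than ID3 (0.67), and the median of all genes moved to -0.156 (TMM -0.0194), with 7167 genes higher and 9118 lower, against 8012 and 8165. With the replicate block 7918 genes were higher and 8008 lower, and the block changed no call of these genes. The BMPR1A to BMPR1B difference (0.0633) was 0.0633 with the block and 0.0572 with 2 added to each count, and ranged from -0.0468 to 0.1442 with 1 library left out; the negative value came without shCK5 replicate 1. By the longest transcript instead of all exons, CPM per kb in shCK5 became 17.5 for ID3, 38.4 for BMP4, 0.208 for BMP7, 0.146 for BMPR1B and 5.44 for BMPR2, and in shControl 3.00 for ID2, 9.99 for ID3, 3.22 for BMP4, 10.6 for BMP7, 3.88 for BMPR1A and 0.181 for BMPR1B. Shares then became 75.9% in shCK5 and 46.2% in shControl for ID1, 99.2% in shCK5 and 22.4% in shControl for BMP4, and 0.537% in shCK5 and 73.9% in shControl for BMP7; these shifts follow from the shorter lengths used. Depth limits ID4, BMP2, BMP7 and BMPR1B in shCK5, which rest on 90, 80, 190 and 185 counts.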
